A study of Homo sapiens with 6 samples.

Results

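The 10 genes described here encode acute-phase proteins and secreted or transported defence proteins of epithelia, except NNMT, which encodes a metabolic enzyme. The 10 are SAA1, SAA2, SERPINA1, SERPINA3, LCN2, SLPI, PI3, NNMT, CP and PIGR, taken by their exact symbols from 23228 genes in the count tables. The RNA came from RL95-2, an established endometrial carcinoma line of human origin, as 3 control libraries and 3 libraries of cells exposed to ADP-CM, the medium that mature adipocytes isolated from human adipose tissue had conditioned. All cells had been grown in RPMI with 10% FBS and were then kept for 24 h without serum, in RPMI mixed 1:1 with DMEM for control and 1:1 with ADP-CM for treated cells. The libraries came from 1 cell line and 1 exposure time, the number of adipose donors behind the medium is not given in the sources used here, and nothing states that the replicates were separate cultures, so the p-values measure only the spread between these libraries, which may be technical. The comparison asks how medium from fat cells alters the RNA of these tumor cells.

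The acute-phase response is the change in plasma proteins that follows injury or infection, made mostly by liver and driven by IL6-family cytokines through STAT3 and C/EBP factors and by IL1 through NF-kB. Epithelia use some of the same genes locally. Lipocalin binds the iron carriers of bacteria, serpins and WAP-domain inhibitors restrain the proteases of neutrophils and mast cells, and a receptor moves antibodies onto the mucosal surface, among them that of the uterus.

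Between 16262614 and 17096135 reads were counted on genes in control and between 18103609 and 18363033 in ADP-CM, so that 1 CPM, the depth-scaled unit of level used below, was about 16.2 to 18.4 reads. No pair of libraries within a group agreed within sampling noise. Of all genes, 12663 passed the filter on low counts of edgeR and were tested, and 6 of the 10 genes were among them: SAA1, SERPINA1, SERPINA3, LCN2, SLPI and NNMT. SAA2, PI3, CP and PIGR lay under the filter and are described by their reads. All 9 epithelial markers were tested, with KRT8, a keratin of simple epithelia, at 1843 CPM in control and 1438 CPM in ADP-CM. Of the markers of other cells, whose summed levels stand at the end, ADIPOQ and LEP of adipocytes, THY1 of stroma, MPO of leukocytes, KDR of endothelium and APOB of hepatocytes had 0 reads in all libraries, where a count of 0 still allows up to 3 reads per library.

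SAA1 and SAA2, the acute-phase serum amyloid A genes, are near copies, so the sequences below show where their coding bases differ. They are neighbours on chromosome 11 of GRCh37, SAA1 at chr11:18287807-18291524 on the plus strand and SAA2 at chr11:18260770-18270215 on the minus strand. Their coding sequences of 366 bases are identical at 355 bases (97%) and differ at 11. The following lines give the second coding exon (SAA1 chr11:18290742-18290880, SAA2 chr11:18267457-18267595) and the third (SAA1 chr11:18291264-18291399, SAA2 chr11:18266927-18267062), read 5′ to 3′ along each gene's own strand, with capitals at the bases that differ.
SAA1 exon 2: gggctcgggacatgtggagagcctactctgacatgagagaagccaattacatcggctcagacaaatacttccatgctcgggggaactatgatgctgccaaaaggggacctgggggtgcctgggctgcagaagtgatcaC
SAA2 exon 2: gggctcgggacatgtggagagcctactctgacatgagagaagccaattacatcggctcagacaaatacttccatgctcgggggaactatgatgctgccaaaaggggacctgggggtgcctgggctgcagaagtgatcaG
SAA1 exon 3: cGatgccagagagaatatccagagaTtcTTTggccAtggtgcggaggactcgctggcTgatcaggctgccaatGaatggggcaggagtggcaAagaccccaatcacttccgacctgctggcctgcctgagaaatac
SAA2 exon 3: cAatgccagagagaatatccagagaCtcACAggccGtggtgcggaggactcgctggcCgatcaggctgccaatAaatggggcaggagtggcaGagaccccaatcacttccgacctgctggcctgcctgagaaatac
The second coding exon held 1 difference, at its last base, and the 138 bases before it were shared. The third held 9, and its longest shared run was 43 bases. This run lies at the end of the coding bases, where the comparison stopped. These lines therefore do not show whether a read of 50 bases that runs past that end tells the genes apart. Windows of 50 bases were taken within the exons of all transcripts, and none of them crossed a splice junction. Of these windows, 300 of the 915 in SAA1 (32.8%) and 285 of the 1899 in SAA2 (15%) occurred more than once in the genome. Reads from such windows have no unique place and are left out of the counts, so both genes are undercounted. The share of reads lost was not measured.

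The 250 bases before the RefSeq start of LCN2 and of SERPINA3 are shown because both genes had higher mean levels in ADP-CM and are textbook targets of the cytokine pathways named above. Of the 10 genes, 4 were matched in the RefSeq promoter table of GRCh38.p14 (LCN2, SERPINA3, SERPINA1 and PIGR), and the positions given are where the same bases occur, once each, in GRCh37. Capitals mark motif matches.
LCN2, chr9:130911482-130911731, plus strand: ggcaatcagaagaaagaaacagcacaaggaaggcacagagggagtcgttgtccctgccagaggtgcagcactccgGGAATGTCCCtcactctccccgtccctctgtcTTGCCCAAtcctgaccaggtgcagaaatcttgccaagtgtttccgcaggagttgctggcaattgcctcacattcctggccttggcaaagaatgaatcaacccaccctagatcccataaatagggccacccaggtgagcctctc
SERPINA3, chr14:95078478-95078727, plus strand: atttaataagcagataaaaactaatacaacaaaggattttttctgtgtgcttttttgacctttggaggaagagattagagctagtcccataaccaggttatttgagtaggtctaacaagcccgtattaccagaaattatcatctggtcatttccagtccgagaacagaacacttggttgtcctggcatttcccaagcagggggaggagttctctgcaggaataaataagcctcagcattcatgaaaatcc
The motifs searched, on both strands, were TTCNNNGAA for STAT factors, GGG followed after any 2 bases by TTTCC or after any 3 bases by TTCC for NF-kB (the forms overlap) and TTGCNNAA for C/EBP. They occurred in 6.6%, 5.7% and 9.1% of the 35116 RefSeq promoter windows of this length. The LCN2 window held GGAATGTCCC, an NF-kB match on the minus strand, with its first base 175 bases before the start, and TTGCCCAA, a C/EBP match, 143 bases before it. No match was found in the windows of SERPINA3, SERPINA1 (which has a pair of starts in the table) or PIGR. A match describes letters and not a bound site. Distances are to the RefSeq start. The GENCODE position of LCN2, given below, starts upstream of that, so the whole LCN2 window lies inside it, and the SERPINA3 window reaches a few bases into its own.

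RNA of 3 of the 6 tested genes rose in ADP-CM, that of LCN2 and NNMT in all 3 libraries and that of SERPINA3 by weight of 1 library. They passed an adjusted p of 0.01 in edgeR's quasi-likelihood test, adjusted by Benjamini-Hochberg over all 12663 genes, as did 13.5% of all tested genes in the raised direction. SERPINA3 and NNMT also exceeded a fold change of 1.5, which 1.14% of tested genes did in the raised direction. None of the 6 was lowered at these limits: 0 passed them in edgeR or DESeq2, and 0 were lower at an unadjusted p under 0.05. The share of all tested genes lowered at the adjusted limit was 13%. Without regard to a test, 8 of the 10 genes had a higher mean level in ADP-CM, while the median log2 fold change of all tested genes was -0.0023. PI3, CP and PIGR are among the 8, with few reads and overlapping groups. For 3 of the 10 (SAA2, LCN2 and NNMT) the control and ADP-CM libraries did not overlap, ADP-CM being the higher in each. Among the 6 tested genes there were 2 of these, LCN2 and NNMT. Over all tested genes 45.5% showed no overlap and 22.7% did so with ADP-CM higher. With bulk RNA, more cells that express a gene and more RNA per cell cannot be told apart.

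**Figure D1:**
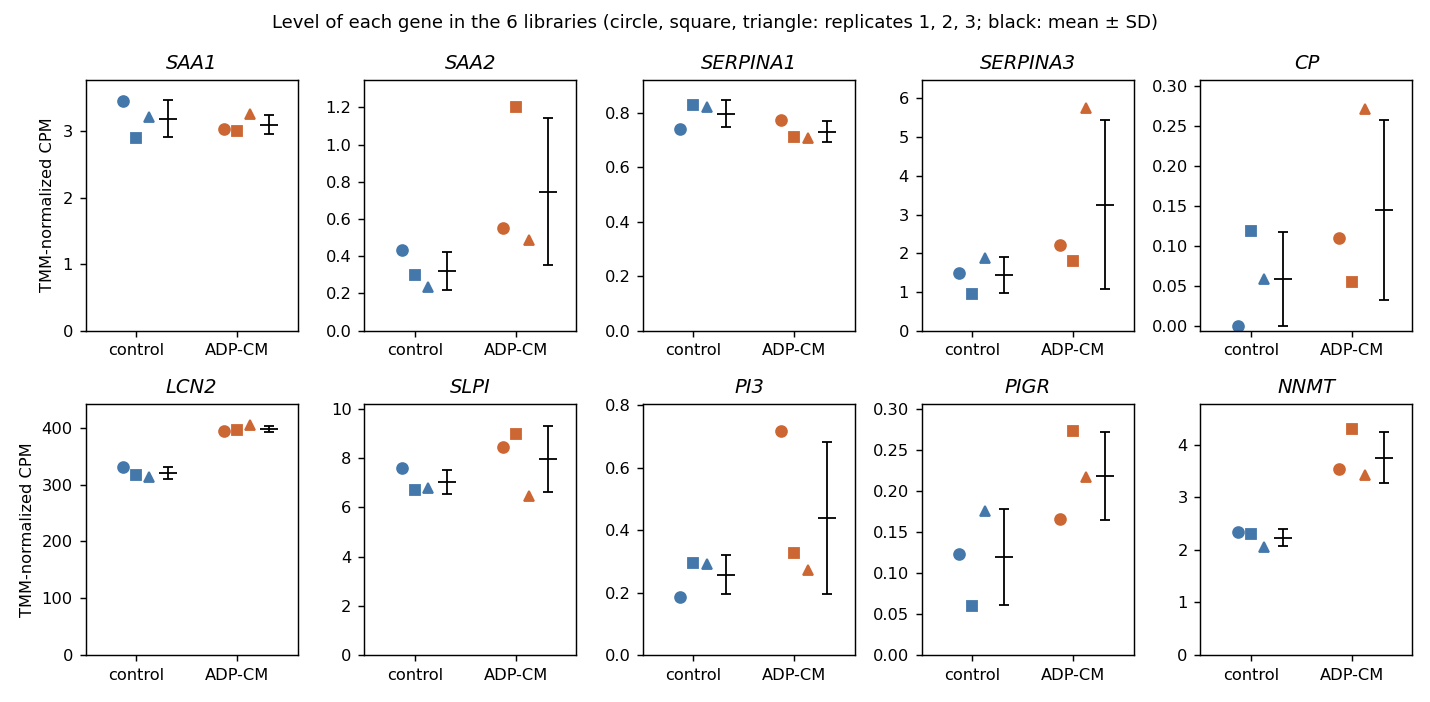
TMM-normalized CPM of each of the 10 genes (vertical axis, linear, its own scale for each gene) in the 3 control (blue) and 3 ADP-CM (orange) libraries, with the mean ± SD in black. LCN2 and NNMT separate the groups (for LCN2 at most 332 CPM in control and at least 394 in ADP-CM), whereas the SERPINA3 mean in ADP-CM is drawn up by replicate 3, at 5.76 CPM.

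LCN2 encodes lipocalin 2 (neutrophil gelatinase-associated lipocalin), the siderophore-binding protein of neutrophils and inflamed epithelia, and lies at chr9:130911350-130915732. Control replicates 1, 2 and 3 held 5384, 5353 and 5346 LCN2 reads, and the ADP-CM replicates, in the same order, 7134, 7252 and 7438. Its normalized level was 320.5 ± 10.1 CPM in control and 398 ± 5.61 CPM in ADP-CM (SD, n = 3 each). All ADP-CM libraries were above all control libraries, and the gap between the groups was wider than the spread within either. LCN2 RNA was 1.24-fold higher in ADP-CM (95% interval 1.20 to 1.28), which is 0.31 ± 0.023 (SE) on the log2 scale (adjusted p = 2.59e-18, edgeR quasi-likelihood test). LCN2 thus rose by less than the 1.5-fold limit. LCN2 alone took 95% to 95.6% of the reads of the 10 genes in every library. The summed level of the other 9 genes was 14.4 to 16.3 CPM in control and 19.6 to 20.9 CPM in ADP-CM, again without overlap.

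NNMT encodes nicotinamide N-methyltransferase, which joins a methyl group from S-adenosylmethionine to nicotinamide and is abundant in liver and fat, and it lies at chr11:114128509-114184258. The 3 control libraries held 38, 39 and 35 NNMT reads and the 3 exposed ones 64, 79 and 63. The levels were 2.23 ± 0.162 CPM and 3.76 ± 0.481 CPM (SD, n = 3 each), the lowest ADP-CM library (3.43 CPM) standing above the highest control library (2.34 CPM). NNMT was 1.68-fold higher (95% interval 1.31 to 2.15), or 0.75 ± 0.18 (SE) on the log2 scale (adjusted p = 0.000538, edgeR quasi-likelihood test). NNMT stands in the study's own heatmap of STAT3 targets from these libraries, so its rise is not independent evidence for that group. The most similar profiles over the 6 libraries, by the distance between log2 levels centred on the control mean among 12136 other genes, were those of GABBR1, a subunit of the GABA-B receptor (distance 0.174, log2 fold change 0.80), and STEAP1, a membrane metalloreductase (distance 0.194, log2 fold change 0.76). The median distance over all those genes was 1.29, and the nearest genes lie under it by the way they were picked.

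SERPINA3 encodes alpha-1-antichymotrypsin, a plasma inhibitor of cathepsin G and mast cell chymase, and lies at chr14:95078721-95090392. Control replicates 1, 2 and 3 held 24, 16 and 32 reads of it, and ADP-CM replicates 1, 2 and 3 held 40, 33 and 106. ADP-CM replicate 3 held more reads than the other ADP-CM libraries together, and at 5.76 CPM it stood over 2 times above both of them. The groups overlapped, because ADP-CM replicate 2 (1.80 CPM) was below control replicate 3 (1.87 CPM). The means were 1.43 ± 0.464 CPM in control and 3.26 ± 2.18 CPM in ADP-CM (SD, n = 3 each). Over all libraries the fold change was 2.27 (95% interval 1.57 to 3.29), or 1.18 ± 0.27 (SE) on the log2 scale (adjusted p = 0.000277, edgeR quasi-likelihood test). Without ADP-CM replicate 3 the log2 value was 0.48 (adjusted p = 0.151, same edgeR test). DESeq2 with all libraries gave a log2 value of 1.19 (adjusted p = 0.140), so the call for SERPINA3 rested on 1 library and on the choice of test. The nearest profiles to SERPINA3 were those of CYB5R2, a cytochrome b5 reductase (distance 0.933, log2 fold change 0.95), and SLC7A2, a carrier of cationic amino acids (distance 0.943, log2 fold change 0.89). The median distance was 2.21, and the nearest genes lie under it by the way they were picked. In ADP-CM replicates 1, 2 and 3 CYB5R2 had 60, 49 and 73 reads and SLC7A2 74, 73 and 111. Unlike for SERPINA3, the groups did not overlap for either gene.

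**Figure D2:**
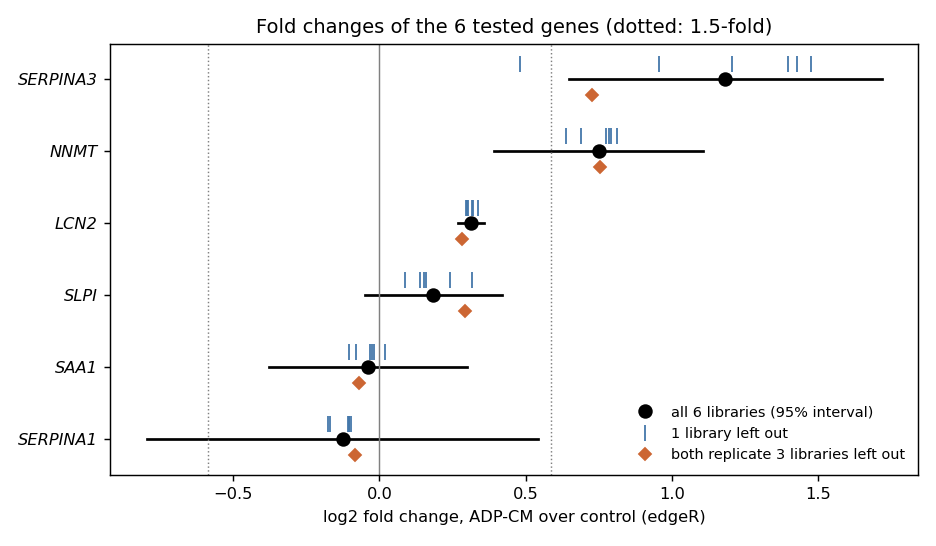
log2 fold change of ADP-CM over control for the 6 tested genes, with its 95% interval (black), the 6 values with 1 library left out (blue ticks) and the value without both replicate 3 libraries (orange), the dotted lines marking 1.5-fold. SERPINA3 moves from 1.18 to 0.48 when ADP-CM replicate 3 is left out, while LCN2 stays between 0.30 and 0.34 and NNMT between 0.64 and 0.81.

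ADP-CM replicate 3 stood apart in a small number of genes. In that library 20 tested genes lay over 2 times above both other libraries of the group, SERPINA3 among them, and control replicate 3 showed 16 such genes. In the other 4 libraries the number was 2 to 10. The replicate 3 libraries had 5 of these genes in common (ASS1, IGFBP4, S100A14, SPTSSB and TFF1), named here after their values were seen. TFF1, a secreted trefoil peptide of mucosal surfaces that estrogen induces, had 9, 86 and 225 reads in control and 52, 34 and 502 in ADP-CM. CFB, the complement factor B gene and an acute-phase gene, had 10, 17 and 9 reads in control and 27, 26 and 178 in ADP-CM. FGB, which encodes the fibrinogen beta chain and is also named after its values were seen, had 14 reads in ADP-CM replicate 3 and at most 1 in any other library. The part of the other genes of replicate 3 in the SERPINA3 result was not tested. Leaving out the replicate 3 library of both groups gave log2 fold changes of 0.73 for SERPINA3 (adjusted p = 0.0480, edgeR) and 0.75 for NNMT (adjusted p = 0.00293).

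**Figure D3:**
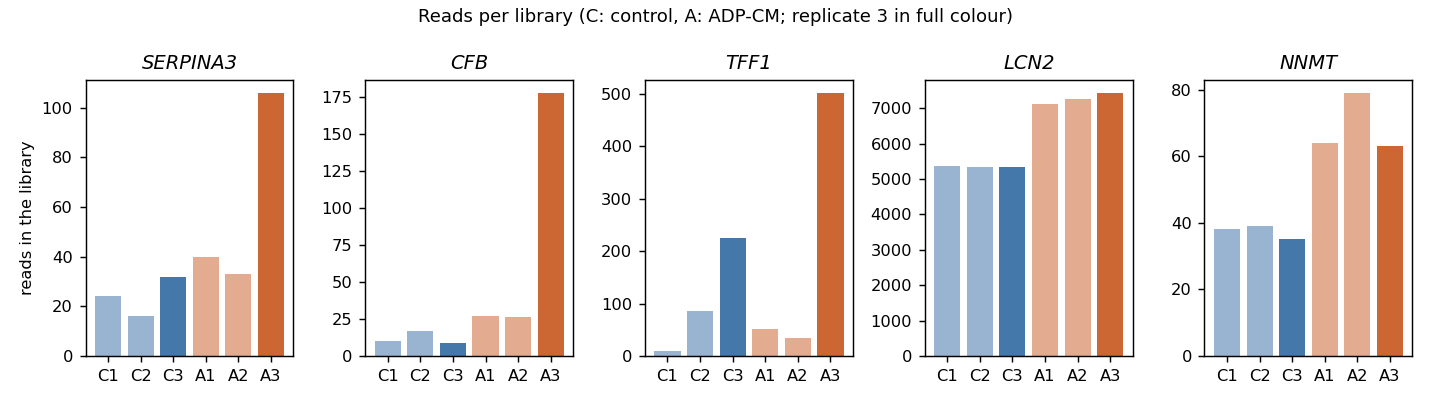
Reads per library (bars from 0, unnormalized) of SERPINA3, CFB, TFF1, LCN2 and NNMT in control (C1 to C3) and ADP-CM (A1 to A3), replicate 3 in full colour. ADP-CM replicate 3 holds 106 SERPINA3 reads and 178 CFB reads, far above the other ADP-CM libraries, but its LCN2 and NNMT reads are near theirs.

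SERPINA1 encodes alpha-1-antitrypsin, the main plasma inhibitor of neutrophil elastase, and lies near SERPINA3 at chr14:94843084-94857030. It had 12, 14 and 14 reads in control and 14, 13 and 13 in ADP-CM, close to the detection filter in every library. The levels were 0.796 ± 0.0489 CPM and 0.730 ± 0.0378 CPM (SD, n = 3 each), and the libraries of the groups overlapped. On the log2 scale the difference was -0.13 ± 0.33 (SE; adjusted p = 0.802, edgeR quasi-likelihood test). The 95% interval of the fold change ran from 0.577 to 1.46, so at this depth neither a moderate fall nor a moderate rise could be detected. Other SERPINA family genes were nearly silent: of the 9 found in the count tables, 7 had 0 reads in all libraries, none had more than 6 in any library, and 0 could be tested.

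SAA1 had 56, 49 and 55 reads in control and 55, 55 and 60 in ADP-CM. Its levels of 3.19 ± 0.276 CPM and 3.1 ± 0.142 CPM (SD, n = 3 each) overlapped, with a log2 difference of -0.04 ± 0.17 (SE; adjusted p = 0.880, edgeR quasi-likelihood test). The 95% interval of the SAA1 fold change, 0.769 to 1.23, lies within 1.5-fold in both directions. SAA2 had 7, 5 and 4 reads in control and 10, 22 and 9 in ADP-CM, that is 0.320 ± 0.101 CPM and 0.747 ± 0.393 CPM. Every ADP-CM library of SAA2 was above every control library, although ADP-CM replicate 2 alone held 22 of its 41 ADP-CM reads. The ratio of the summed normalized SAA2 reads was 2.35, with an exact 95% interval of 1.29 to 4.48 that covers counting error only, and it was 1.63 without ADP-CM replicate 2. An exact two-sided permutation test over the libraries gave p = 0.1 for SAA2, the smallest value that 3 against 3 allows. When edgeR was run without the filter on low counts, the log2 fold change of SAA2 was 1.21 ± 0.45 (SE; adjusted p = 0.0302), which does not reach the limit of 0.01. Whether SAA2 and SAA1 differed in their response was not tested. SAA2 exons share 11.9% of their length, on the same strand, with the read-through gene SAA2-SAA4. That gene had 0 reads in all libraries, while SAA4 itself had at most 1. Reads that could not be given to a single gene were set apart as ambiguous (0.709% to 0.721% of all counted reads). SAA2 reads on the shared bases may be among them, and their number was not measured.

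SLPI and PI3 encode secretory leukocyte protease inhibitor and elafin, WAP-domain proteins that inhibit neutrophil elastase at mucosal surfaces and are encoded close together on chromosome 20 (chr20:43880880-43883205 and chr20:43803543-43805185). SLPI had 123, 113 and 116 reads in control and 153, 165 and 119 in ADP-CM. ADP-CM replicates 1 and 2 stood above all control libraries, but ADP-CM replicate 3 (6.47 CPM) was below them all, the reverse of its place for SERPINA3. The levels of SLPI were 7.02 ± 0.489 CPM and 7.97 ± 1.33 CPM (SD, n = 3 each), a log2 difference of 0.18 ± 0.12 (SE; adjusted p = 0.221, edgeR quasi-likelihood test). The 95% interval of the SLPI fold change was 0.966 to 1.34. With 1 library left out the log2 difference ran from 0.09 without ADP-CM replicate 2 (adjusted p = 0.648, edgeR) to 0.32 without ADP-CM replicate 3 (adjusted p = 0.0329), and none of these passed the limit. PI3 had 3, 5 and 5 reads in control and 13, 6 and 5 in ADP-CM, and with depth taken into account ADP-CM replicate 3 (0.272 CPM) was below control replicate 2 (0.296 CPM), so the groups overlapped. The ratio of summed normalized PI3 reads was 1.69 with an exact 95% counting interval of 0.827 to 3.62, and lay between 1.16 (without ADP-CM replicate 1) and 2.01 with 1 library left out. Of the 17 other WFDC family genes found in the tables, 12 had 0 reads in all libraries, and the only tested one, KAL1, which encodes anosmin 1, had a log2 fold change of 0.05.

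CP encodes ceruloplasmin, the copper-carrying ferroxidase of plasma, and lies at chr3:148880197-148939616. CP had 0, 2 and 1 reads in control and 2, 1 and 5 in ADP-CM. Its exons share 20.1% of their length with HPS3 on the opposite strand, and the strand setting of the counting is not given. Whether this overlap altered the CP count was not tested. PIGR encodes the polymeric immunoglobulin receptor, which carries IgA and IgM across epithelia, and lies at chr1:207101867-207119811. PIGR had 2, 1 and 3 reads in control and 3, 5 and 4 in ADP-CM. Both genes were at or under the floor of 3 reads in control, and the groups overlapped. The ratios of summed normalized reads, 2.44 for CP (exact 95% counting interval 0.586 to 14.3) and 1.83 for PIGR (0.636 to 5.95), do not show a difference at this depth. The CP ratio was 1.38 without ADP-CM replicate 3 and 4.86 without control replicate 2.

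Levels can be set between genes only per length of transcript. Per kilobase of exon, the control order ran from LCN2 (200.8 ± 6.32 CPM per kb) and SLPI (11.8 ± 0.821) through SAA1 (3.00 ± 0.260), NNMT (0.860 ± 0.0624), PI3 (0.468 ± 0.115) and SERPINA3 (0.287 ± 0.0927) to SERPINA1 (0.162 ± 0.00998), SAA2 (0.143 ± 0.0451), PIGR (0.0273 ± 0.0133) and CP (0.00834 ± 0.00837, SD, n = 3 each). The library values of PI3 and SERPINA3, of SERPINA1 and SAA2, and of PIGR and CP overlapped, so these neighbours did not differ beyond their spread. The other neighbours were separate in all 3 control libraries. In ADP-CM the order was the same except that SAA2 (0.333 CPM per kb) stood above SERPINA1 (0.149). LCN2 stood above the other 9 genes in every library.

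Around these genes, other acute-phase genes were counted from a list of 30, all present in the tables. Of these, 11 had 0 reads in all libraries, among them CRP, HP, ORM2 and FGA, which liver makes in bulk, and 6 were tested. At an adjusted p under 0.01, 4 of the 6 were raised in edgeR (3 of them over 1.5-fold), and 0 were lowered in edgeR or DESeq2 (1 at an unadjusted p under 0.05 in edgeR). Of all tested genes, 13.5% were raised and 13% lowered at that limit in edgeR, and 1.14% were raised over 1.5-fold. The median log2 fold change of the 6 was 0.40, and that of all tested genes was -0.0023. C3, the central complement component, rose from 19.2 ± 0.712 to 31.5 ± 0.148 CPM (log2 fold change 0.71). CFB passed the test with all libraries (log2 fold change 2.54, adjusted p = 8.11e-07 in edgeR) but not without ADP-CM replicate 3 (1.01, adjusted p = 0.0108), which left 3 of the list raised. The hepatocyte markers ALB, APOA1, APOB, TTR, CYP3A4 and AHSG summed to 0.0592 to 0.292 CPM in control and 0.0545 to 0.109 CPM in ADP-CM, and 0 of the 6 could be tested.

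Other epithelial defence genes were counted from a list of 32, of which 12 were tested and 12 had 0 reads in all libraries, CAMP, LTF and DEFB4A among them. Of the 12 tested, 4 were raised (1 over 1.5-fold) and 1 was lowered at the same limit on p alone, and the median log2 fold change was 0.42. The shares of all tested genes at that limit were 13.5% raised and 13% lowered. ZC3H12A, an RNase that limits cytokine transcripts, rose from 36.8 ± 2.32 to 55 ± 1.96 CPM (log2 fold change 0.58). CCL20, a chemokine for dendritic cells and lymphocytes, rose from 6.42 ± 0.426 to 8.92 ± 0.141 CPM (0.47). S100A9, a subunit of calprotectin, fell from 92.4 ± 4.39 to 78.7 ± 7.47 CPM (-0.23), whereas S100A8, which encodes its partner subunit and is named after its values were seen, rose by 0.36 on the log2 scale in the same test. In DESeq2 neither S100A9 (adjusted p = 0.0314) nor S100A8 passed the limit.

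Proteases, receptors and metabolic partners of the 10 proteins were counted from a list of 35. The count files held 33 of them and 15 were tested, with 4 raised (1 over 1.5-fold) and 5 lowered (0 by over 1.5-fold) at the limit on p, and a median log2 fold change of 0.05. At that limit 13.5% of all tested genes were raised and 13% lowered. ELANE, CTSG and CMA1, the target proteases of the serpins and WAP-domain inhibitors, had 0 reads in all libraries. GRN, the progranulin gene, whose product SLPI shields from elastase, fell from 215.8 ± 3.79 to 168.3 ± 8.76 CPM (log2 fold change -0.36). The iron genes TFRC (transferrin receptor, -0.19) and FTH1 (ferritin heavy chain, -0.18) also fell, by less than the 1.5-fold limit. MAT2A and AHCY, which make S-adenosylmethionine and clear the product of its use by NNMT and other methyltransferases, rose by 0.19 and 0.12 on the log2 scale and are named after their values were seen.

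Receptors and transcription factors of the acute-phase response were counted from a list of 37, of which 33 were tested. Of these, 9 were raised (3 over 1.5-fold) and 6 lowered (0 by over 1.5-fold) at the same limit on p, and the median log2 fold change was 0.0093. The raised share was 27.3% and the lowered share 18.2%, against 13.5% and 13% of all tested genes. SOCS3, the feedback inhibitor of IL6-family receptors, rose with a log2 fold change of 0.59, and NFKBIZ, an NF-kB cofactor for LCN2 and other defence genes, rose from 54.0 ± 0.875 to 73.8 ± 1.09 CPM (0.45). ELF3, an epithelial ETS factor, fell from 367 ± 5.59 to 253.7 ± 5.47 CPM (-0.53; adjusted p = 4.09e-29, edgeR quasi-likelihood test).

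**Figure D4:**
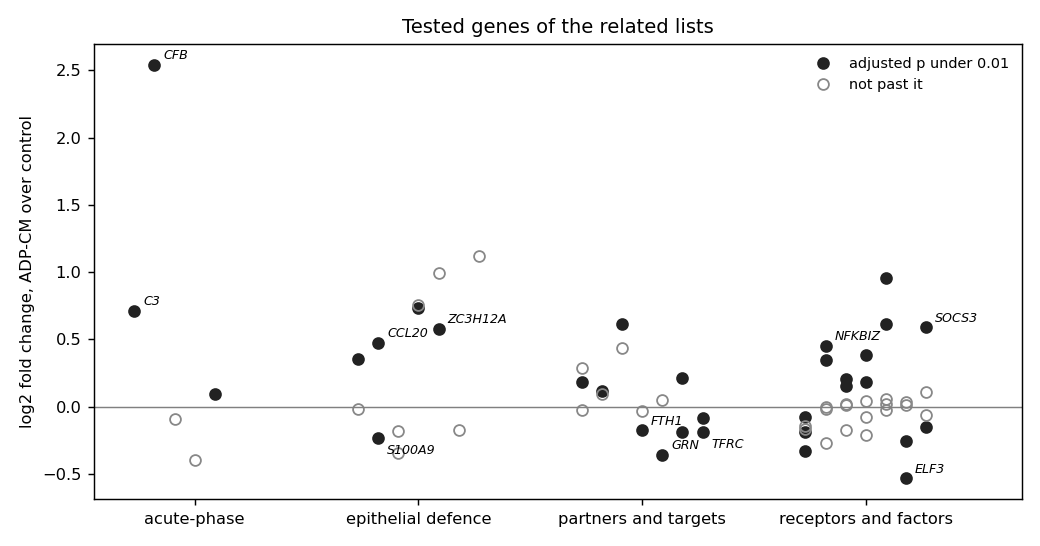
log2 fold change of ADP-CM over control (vertical axis) for the tested genes of the 4 related lists, each point a gene, filled where the adjusted p-value of edgeR was under 0.01. Horizontal place within a list only spreads the points. A gene that is not reported here is not drawn. The acute-phase list holds 3 filled points, all above 0, while the receptors and factors spread to both sides, from ELF3 at -0.53 upward.

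Markers of other cell types were measured beside these results. The 10 adipocyte markers summed to 0.616 to 1.24 CPM in control and 0.994 to 1.25 CPM in ADP-CM, 4 of them at 0 in all libraries and 0 of them tested. The 7 stromal markers summed to 61.5 to 68.4 CPM in control and 78.3 to 79.1 in ADP-CM, with THY1 at 0. Nearly all of that sum was COL1A1, a collagen chain gene, which rose from 62.3 ± 3.73 to 76.7 ± 0.839 CPM (log2 fold change 0.30). The 8 leukocyte markers summed to 8.36 to 9.74 CPM and 10.9 to 13.3 CPM, with MPO at 0, and most of that was CD68, a lysosomal membrane protein gene, which rose from 7.43 ± 0.669 to 10.7 ± 1.03 CPM (log2 fold change 0.53). The 5 endothelial markers summed to 60.9 to 67.1 CPM in control and 54.6 to 62.2 CPM in ADP-CM, nearly all CDH5, with KDR at 0. The 9 epithelial markers summed to 4146 to 4219 CPM in control and 3492 to 3540 CPM in ADP-CM without overlap. At an adjusted p under 0.01 in edgeR 2 were raised and 5 lowered, KRT19 among the lowered at 0.556-fold. The shares of all tested genes at that limit were 13.5% raised and 13% lowered. EPCAM, named after its values were seen, was level (log2 fold change 0.0054). The stromal and leukocyte sums were thus higher, mainly through COL1A1 and CD68, and the epithelial sum lower in all ADP-CM libraries. The other tested stromal and leukocyte markers, COL3A1 (log2 fold change -0.01) and ITGAM (-0.20), did not pass the limit. LCN2 and NNMT were higher in the same libraries, and the part of these markers in the LCN2 and NNMT results was not tested.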

How the data were processed

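The authors aligned 50-base single reads of stranded poly(A) libraries to hg19 with TopHat2 and deposited raw HTSeq counts per RefSeq gene for each library. Versions and the strand setting of the counting are not given in the sources used here. Lines naming no gene (31.4% to 33.0% of all counted reads, mostly reads without a unique alignment) entered neither the library sizes nor the tests. Samples were grouped by the submitters' labels. In R 4.3.3, edgeR 4.0.16 normalized the counts by TMM, kept genes by filterByExpr, and compared 3 with 3 libraries by its quasi-likelihood test, with p-values adjusted by Benjamini-Hochberg. Calls over all genes and over the 10 genes needed an adjusted p under 0.01 and a change over 1.5-fold, and the related lists were counted at the limit on p alone. DESeq2 1.42.0, other scalings and filters, the replicate number as a block and each library left out in turn were alternatives. The robust fit and the omission of both replicate 3 libraries were added after the data were seen. The 10 genes and the lists were chosen with earlier results of these data known. Named were the 10 genes, up to 3 genes with the smallest p-values per list, and the 2 nearest profiles of each gene past both limits. A few list genes are not reported here. Counting intervals and floors cover counting error only. Scripts were tested on simulated data. Gene positions were taken from GENCODE release 44 (GRCh37), and 50-base windows were searched over that genome.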

Additional observations from a re-analysis of the deposited data

Results flagged for a closer look

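Reads that lay on no gene, which enter none of the comparisons, made up 11.5% ± 0.0331 of all counted reads in ADP-CM and 10.3% ± 0.0528 in control (SD, n = 3 each). They were flagged because every ADP-CM library was above every control library in data outside the gene counts.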

How the results depend on the processing

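The SERPINA3 call depended on the processing. Its log2 fold change was 1.19 in DESeq2 (adjusted p-value 0.140), 1.18 in the robust edgeR fit (adjusted p-value 0.260), 0.73 without both replicate 3 libraries (adjusted p-value 0.0480) and 0.48 to 1.47 with 1 library left out, lowest without ADP-CM replicate 3. In each of the first 3 settings 1 of the 10 genes was past both limits, and 1 to 2 with 1 library left out. NNMT and LCN2 kept their direction and their side of the adjusted limit in all alternatives run, NNMT with adjusted p-values up to 0.00985 (DESeq2). Among other epithelial defence genes, counted at the adjusted limit with no limit on the fold, DESeq2 had 2 raised and 0 lowered, 2 were lowered without both replicate 3 libraries, and leaving out 1 library gave 2 to 5 raised (2 without control replicate 2) and 1 to 3 lowered (3 without ADP-CM replicate 3). At both limits DESeq2 called 95 of all genes raised, against 144, and with no limit on the fold change 1707 were raised and 1650 lowered. By the longest transcript in place of all exons, 6 of the 10 genes kept their place in the order of levels. For CFB the log2 fold change was 2.55 in DESeq2 (adjusted p-value 0.0349), 2.54 in the robust edgeR fit (0.227) and 0.83 without both replicate 3 libraries (0.0587). Deviations of control and ADP-CM libraries from their group means correlated at 0.0726, 0.0141 and 0.0973 for equal replicate numbers. For unequal numbers the correlations were -0.0928 to 0.0261. Whether equal numbers mark paired libraries was not tested. With the replicate block 151 genes were raised and 146 lowered, with 2 of the 10 genes raised, as without it. The cause of these changes was not tested. SAA2, PI3, CP and PIGR have too few reads for small differences to be detected.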
